A study of Mus musculus with 6 samples.

Results

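The genes described here are 4 receptors for chemokines and related attractants that direct the traffic of myeloid cells: Ccr1, Ccr2, Ccrl2 and Cx3cr1. They were taken by name from the 23016 genes of the deposited table of counts, and all 4 are in it. Transcripts of single cells were counted in 6 libraries of wild-type mice, 1 library per group. The groups were bone marrow of aged and of young mice 24 h after an experimental stroke, made by blocking the middle cerebral artery, blood of aged and of young mice at steady state, and bone marrow of aged and of young mice at steady state. Sorting had enriched marrow cells that carry Gr1 or c-kit, and blood cells that carry CD11b, with or without Ly6G, so the gates help to set how many cells of a class were seen. The labels used here give no ages and no number of mice, and no sham-operated library is among the 6, so the operation and the stroke cannot be told apart.

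Chemokine receptors sit in the cell membrane, couple to inhibitory G proteins and guide a cell up a gradient of their ligand. Ccr1 answers to inflammatory CC chemokines such as Ccl3, Ccl5 and, in the mouse, Ccl6 and Ccl9. Ccr2 answers to Ccl2 and Ccl7 and is the receptor that classical monocytes need to leave the marrow for the blood. Cx3cr1 binds fractalkine (Cx3cl1) and is the classical marker of non-classical monocytes, which patrol vessel walls and depend on it for survival. Ccrl2 is an atypical receptor that binds chemerin (Rarres2) and presents it to the signalling receptor Cmklr1, and mouse neutrophils also carry it.

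With 1 library per group there was no replicate, so intervals below are exact 95% intervals that cover counting error only, and no pair of libraries was tested. A UMI is 1 counted transcript molecule. Over all deposited cells the libraries held between 10208699 UMIs (young blood, 2236 cells) and 72743805 UMIs (young steady-state marrow, 8213 cells). Of these cells 1944 and 7926 were kept. Also over all deposited cells, the 4 genes had 1972 to 10425 UMIs (Ccr1), 3220 to 17292 (Ccr2), 67 to 418 (Ccrl2) and 347 to 12018 (Cx3cr1) per library. Levels are in CPM, the summed UMIs of a gene in a class of cells scaled to a common total. Classes were made by clustering each context without the 4 genes and were named from other markers, and each name means "like" that class. Doublets, meaning 2 cells under 1 barcode, were hard to call after stroke: 12.1% and 7.62% of simulated doublets passed the score in the aged and young stroke libraries, against 35.2% to 53.7% elsewhere. Pairs of libraries shared 5 to 21 barcodes. The unnamed share was 28.7% and 40.4% of the aged and young cells after stroke, against 1.29% to 8.97% in the other libraries.

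All 4 genes lie on mouse chromosome 9 (GRCm38) and code for proteins. Ccr1 (ENSMUSG00000025804) runs from 123962124 to 123968692 on the minus strand and Ccr2 (ENSMUSG00000049103) from 124101950 to 124113557 on the plus strand, with Ccr1l1 and Ccr3 between them. Cx3cr1 (ENSMUSG00000052336) runs from 119901616 to 120069879 and Ccrl2 (ENSMUSG00000043953) from 111054486 to 111057519, both on the minus strand. Of 451 windows of 50 bases in the last 500 bases of each transcript, none of Ccr1, Ccr2 or Ccrl2 occurs in a transcript of another gene, and 12 of Cx3cr1 do. An exon of Cx3cr1 is overlapped on the opposite strand by Gm33858, and the sources used here do not say whether counting used strand.

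Ccr1, Cx3cr1 and Ccrl2 differed most in where and when they were detected. Ccr1 was found in maturing neutrophils and Cx3cr1 in monocytes. Ccrl2 was found at low levels in neutrophils of blood, in NK cells and in some other classes. For this reason the promoter windows of these 3 genes, from RefSeq on GRCm38.p6, are shown. Each runs 5′ to 3′ on the gene's strand from 250 bases before to 50 bases after the annotated start. Capitals mark matches on either strand to the letters GAGGAA (core of the PU.1 motif), TTGCAA (core of the C/EBP motif), GGGA, any 3 bases, TCC (a form of the NF-kB motif), TGANTCA (AP-1) and CACCC (core of the KLF motif).
Ccr1, chr9:123968643-123968942, minus strand: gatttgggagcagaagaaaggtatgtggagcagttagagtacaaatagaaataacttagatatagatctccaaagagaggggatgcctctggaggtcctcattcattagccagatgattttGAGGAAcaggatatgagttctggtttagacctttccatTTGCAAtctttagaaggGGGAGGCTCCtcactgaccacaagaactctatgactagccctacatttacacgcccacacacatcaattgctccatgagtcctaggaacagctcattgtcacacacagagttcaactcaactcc
Cx3cr1, chr9:120068247-120068546, minus strand: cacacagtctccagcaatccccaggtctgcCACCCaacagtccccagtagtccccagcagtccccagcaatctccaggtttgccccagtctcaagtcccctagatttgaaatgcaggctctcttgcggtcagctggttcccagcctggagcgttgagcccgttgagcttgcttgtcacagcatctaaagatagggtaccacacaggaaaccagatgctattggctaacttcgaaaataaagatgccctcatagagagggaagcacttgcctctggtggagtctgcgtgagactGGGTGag
Ccrl2, chr9:111057469-111057768, minus strand: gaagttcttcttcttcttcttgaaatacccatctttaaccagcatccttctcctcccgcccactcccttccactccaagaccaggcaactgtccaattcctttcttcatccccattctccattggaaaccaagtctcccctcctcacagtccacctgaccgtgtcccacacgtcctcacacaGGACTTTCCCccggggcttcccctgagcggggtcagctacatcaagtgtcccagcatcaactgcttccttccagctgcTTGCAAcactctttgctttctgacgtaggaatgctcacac
The Ccr1 window holds 1 match each to the PU.1, C/EBP and NF-kB letters, and the Ccrl2 window shown, 1 of 3 for that gene, holds the C/EBP and NF-kB letters. Ccrl2 windows 2 and 3, which are not shown, lack the NF-kB letters. Both hold the KLF letters, and window 2 also holds the C/EBP letters. The Cx3cr1 window holds only the KLF letters, on both strands, and the Ccr2 window holds none of the 5. The PU.1 letters occur in 28.3% of all 32851 promoter windows of this length, the C/EBP letters in 6.23%, the NF-kB letters in 4.59%, the AP-1 letters in 7.81% and the KLF letters in 57.5%. The motifs were chosen with earlier results of these data known, and a match is only a match of letters.

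Ccr1 was the receptor of the neutrophil lineage, and its level was higher at each later stage. In neutrophil-primed progenitors, which make the azurophil granule proteins Elane and Mpo, it had 12.1 CPM (aged) and 3.03 CPM (young) after stroke, against 4.6 and 4.07 CPM at steady state. Erythroid cells had 3.38 and 0.95 CPM after stroke against 3.26 and 5.28 CPM at steady state. The progenitor levels were thus near those of erythroid cells at steady state and above them after stroke. In the aged stroke library 41.2% of the 119 Ccr1 UMIs of these progenitors lay in 10 of 198 cells.

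Dividing pre-neutrophils had 116 CPM (aged) and 94.0 CPM (young) of Ccr1 after stroke, against 36.0 and 32.4 CPM at steady state. Immature neutrophils had 335 and 312 CPM after stroke, against 119 and 133 CPM at steady state. Mature neutrophils had 588 and 656 CPM in the stroke marrow and 706 and 893 CPM in blood. No cluster of the steady-state marrow was named mature. The mature class of stroke marrow was 1 cluster, led by Retnlg, Mmp8 and Mmp9, whose highest marker score was that of immature neutrophils. Its 12 immature markers summed to 73182 and 63532 CPM (aged and young), against 15523 and 13624 CPM in mature neutrophils of blood, and its 13 mature markers to 11224 and 12964 CPM, against 26860 and 27006 CPM. Within each marrow library every later stage was above the earlier one by more than counting error. Immature over dividing cells gave log2 ratios of 1.54 and 1.73 after stroke and of 1.72 and 2.03 at steady state, and mature over immature cells gave 0.81 and 1.07 after stroke (aged first in each pair).

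**Figure D1:**
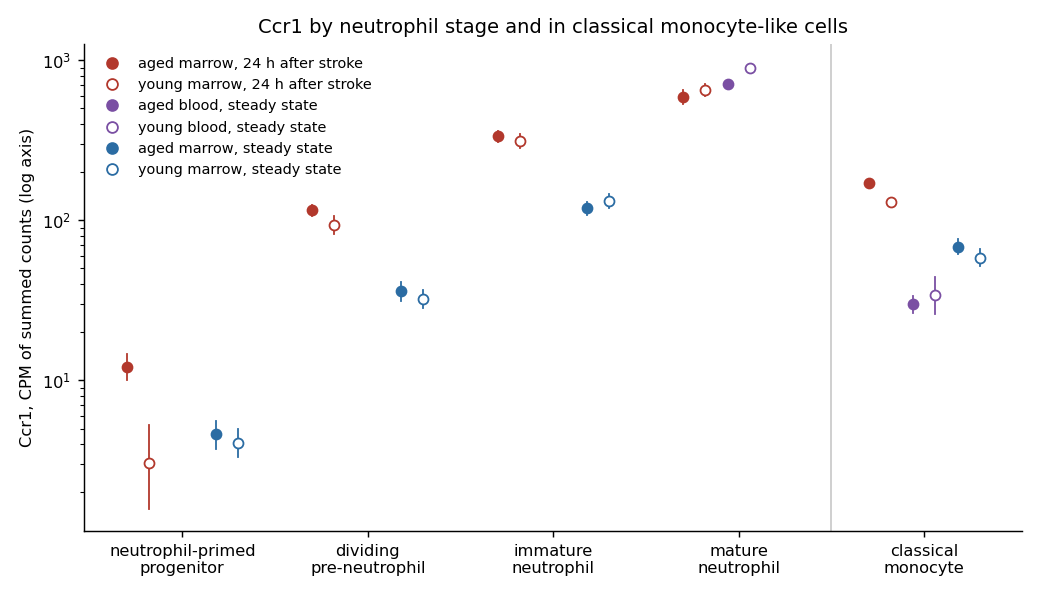
Ccr1 in CPM of summed counts (log axis) by neutrophil stage and, right of the line, in classical monocytes, with 1 point per library and exact 95% counting intervals. Within neutrophils the level climbs from 3.03 to 12.1 CPM in progenitors up to 588 to 893 CPM in mature cells.

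The same order held at equal depth. With every cell thinned to 1000 UMIs, a Ccr1 UMI was found in 46.9% and 51.0% of the aged and young mature neutrophils after stroke and in 48.0% and 57.4% of those in blood (97.0%, 93.9%, 88.9% and 92.5% unthinned). Among immature neutrophils the share was 28.9% and 30.3% after stroke, against 11.8% and 11.1% at steady state. The background was low: 0% to 0.679% of erythroid cells of the marrow libraries and 0% to 7.32% of B lineage cells over all libraries had a UMI after thinning. The highest B lineage share came from 3 of 41 cells of young blood. Depth differed between classes, with a median of 3980 to 5519 UMIs in mature neutrophils and of 8191 to 16401 UMIs in marrow erythroid cells. Outside the lineage, basophils and mast cells had 219 CPM of Ccr1 in aged stroke marrow, against 195 and 214 CPM in the aged and young steady-state marrow.

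The stages of 1 context also differed within themselves. At steady state, immature cluster 23 had 242 CPM (aged) and 276 CPM (young) of Ccr1, and immature cluster 2 had 81.8 and 78.7 CPM. Cluster 23 was the later of the pair by other genes: Retnlg, a gene of late neutrophil stages, stood at 19544 and 23251 CPM there and at 2599 and 2631 CPM in cluster 2. The chemokine receptor Cxcr2 stood at 564 and 714 CPM in cluster 23 and at 158 and 140 CPM in cluster 2.

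Over the 64 sums of a class and library, the genes most like Ccr1 were the inhibitory receptor gene Lilr4b (Pearson r = 0.92), Cxcr2 (0.90), the metalloprotease gene Adam8 (0.89), Pi16 (0.88) and Cd300lf (0.87). These were the highest of 6019 genes with a mean of at least 20 CPM, on log2(CPM + 5). Sums of 1 library share its depth and its free RNA, and Cxcr2 was itself a marker used to name mature neutrophils, so the correlations are a description.

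Stroke was compared with steady state in the immature neutrophils of both ages. Ccr1 was higher after stroke by 1.64 ± 0.13 on the log2 scale (SE, edgeR's quasi-likelihood test, adjusted p = 5.19e-34, n = 2 libraries per condition). In that fit 26.3% of the 7607 genes passed. Counting on each pair gave 1.49 (1.31 to 1.68) in aged and 1.23 (1.03 to 1.44) in young mice. The fit scales libraries by TMM, and the median gene shifted by 0.27 on the log2 scale between TMM scaling and plain library size. With library size alone the Ccr1 difference was 1.36 ± 0.13. The immature class was later in stage after stroke: Retnlg stood at 22274 and 21321 CPM after stroke against 6521 and 8261 CPM at steady state, and the specific granule gene Camp at 20079 and 17686 CPM against 50813 and 46837 CPM. This depends on naming. Stroke cluster 3 (200 aged and 111 young cells, 154 CPM of Ccr1), led by Camp and Ngp, was left unnamed. So was steady-state cluster 19 (121 and 198 cells, 44.6 CPM). With both added, after the data were seen, the Ccr1 difference was 1.36 ± 0.11 (log2, SE, adjusted p = 8.78e-15 by edgeR's test, 2197 of 8843 genes called).

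In the clusters nearest in stage, stroke cluster 4 and steady-state cluster 23, the Ccr1 difference was smaller. It was 0.67 ± 0.15 (log2, SE, edgeR's quasi-likelihood test, adjusted p = 1.36e-04, 19% of 5675 genes called), a choice made after the data were seen. By CPM the pairs of libraries gave 335 against 242 CPM in aged mice, a log2 ratio of 0.47 (0.24 to 0.71). They gave 312 against 276 CPM in young mice, a ratio of 0.18 with an interval that includes 0 (-0.06 to 0.42). Both ratios by CPM lie below the fitted 0.67, which rests on TMM scaling. The fit of these clusters was not run with library size alone. Ccr2 had at most 26 UMIs per library in immature neutrophils, and its difference over the whole class did not pass (-0.22 ± 0.51, adjusted p = 0.812 by edgeR's test). In clusters 23 and 4 it was -1.28 ± 0.49 (adjusted p = 0.0516 by edgeR's test), and with doublets kept it passed (-1.26 ± 0.44, adjusted p = 0.0140). Ccrl2 and Cx3cr1 were too low to enter the fit of the whole class. With doublets kept Cx3cr1 entered and passed (-3.22 ± 1.12, log2, SE, adjusted p = 0.0148 by edgeR's test), from classes of 155 and 105 cells after stroke against 663 and 775 at steady state.

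Age was compared in immature and mature neutrophils joined, with context as a term. After stroke the joined cells were 168 immature and 99 mature in the aged library, against 110 and 148 in the young one. The part of this stage mix in the age differences was not tested. No member passed by edgeR's or DESeq2's test, at a background of 0.138% of 9399 genes called by edgeR, and no member had an unadjusted p under 0.05. Ccr1 differed by -0.17 ± 0.12 (log2, SE, adjusted p = 0.815 by edgeR's test, n = 3 libraries per age). The pairs of libraries did not all point one way. Aged and young mature neutrophils had 588 and 656 CPM after stroke, a log2 ratio of -0.16 (-0.35 to 0.04), and 706 and 893 CPM in blood, a ratio of -0.34 (-0.39 to -0.29). Aged and young immature cells had 335 and 312 CPM after stroke and 119 and 133 CPM at steady state, and both of these intervals include 0.

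In blood the Ccr1 level of the aged library was below that of the young one in each of the 5 mature clusters, most of which hold mainly 1 library, and the interval of the ratio excluded 0 in 3 of them. Cluster 1 had 739 CPM in 187 aged cells and 905 CPM in 1041 young cells. Cluster 4, where the libraries were closest in number (341 aged and 274 young cells), had 703 CPM (aged) and 883 CPM (young). The 5 clusters share the same pair of libraries, so they are not replicates.

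Ccr2 was the receptor of the monocyte lineage. Classical monocytes had 691 CPM (aged) and 737 CPM (young) of Ccr2 after stroke, 1509 and 1479 CPM in blood, and 1224 and 1234 CPM in steady-state marrow. Non-classical monocytes, a class named in blood alone, had 100.5 CPM (aged) and 131 CPM (young), log2 ratios of -3.91 (-4.03 to -3.78) and -3.50 (-3.87 to -3.15) over classical monocytes. Erythroid cells of marrow, as the background, had 3.04 and 2.37 CPM after stroke against 11.7 and 9.43 CPM at steady state. After thinning to 1000 UMIs a Ccr2 UMI was found in 57.1% to 71.2% of classical monocytes per library (92.0% to 99.3% unthinned) and in 0% to 1.39% of erythroid cells.

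Ccr2 was present before the monocyte stage. Neutrophil-primed progenitors had 108 and 105 CPM after stroke, against 134 and 135 CPM at steady state, far above erythroid cells and above the dividing pre-neutrophils (9.98 and 21.2 CPM after stroke, 5.56 and 4.43 CPM at steady state). The progenitor class was uneven at steady state. Clusters 0 and 1, whose leading genes also held the monocyte genes F13a1 and Ms4a6c and the factor gene Irf8, had 196 to 208 CPM of Ccr2. Clusters 3 and 7, led by Elane, Ctsg and Mpo without them, had 18.6 to 43.0 CPM. In dividing pre-neutrophils after stroke 96.0% of the 50 aged UMIs and all 53 young UMIs lay in 10 cells.

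Conventional dendritic cells had 470 CPM (aged) and 775 CPM (young) of Ccr2 after stroke, 910 CPM in aged blood, and 757 and 854 CPM in steady-state marrow. NK cells had 255 and 520 CPM after stroke, 329 and 407 CPM in blood, and 247 and 363 CPM at steady state. The steady-state NK class also held 7803 and 8542 CPM of the neutrophil gene Camp, and the part of other cells in its levels was not tested.

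Cx3cr1 was highest in non-classical monocytes, with 931 CPM (aged) and 1137 CPM (young). Classical monocytes of blood had 599 and 453 CPM. Classical monocytes of marrow were lower, with 18.3 and 34.4 CPM after stroke and 178 and 186 CPM at steady state. Non-classical over classical cells gave a log2 ratio of 0.64 (0.58 to 0.69) in aged and of 1.33 (1.17 to 1.48) in young blood. After thinning to 1000 UMIs, 56.6% and 67.3% of non-classical monocytes had a Cx3cr1 UMI, against 0.679% to 2.22% of erythroid cells (97.6% and 98.1% of non-classical monocytes unthinned). The named non-classical cells were led by Ear2, Ace and Adgre4, and only 52 of them were from young blood.

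Over the same 64 sums, the genes most like Cx3cr1 were Ptpro (r = 0.89), the receptor gene of the monocyte growth factor Csf1, Csf1r (0.84), the protease gene Ctsb (0.84), Elmo2 (0.84) and the factor gene Klf4 (0.84). For Ccr2 they were S100a4 (0.88), Otulinl (0.88), Olfm1 (0.85), Ahnak (0.84) and Ms4a6c (0.81). Csf1r, Klf4, S100a4 and Ms4a6c were among the markers that named monocytes. Between members, Ccr2 and Cx3cr1 had r = 0.72, and the other 5 pairs lay between -0.16 and 0.05.

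The monocyte clusters were ordered by cell division as well as by place. At steady state the dividing clusters 12 and 26 had 924 and 802 CPM of Ccr2 in the aged and 967 and 849 CPM in the young library, and the non-dividing cluster 9 had 2111 and 2182 CPM. Cx3cr1 stood at 89.5 and 96.2 CPM (aged) and 108 and 137 CPM (young) in the dividing clusters, and at 406 and 404 CPM in cluster 9. After stroke the dividing clusters 13 and 15 had 5.34 and 3.11 CPM of Cx3cr1 in the aged and 6.81 and 2.87 CPM in the young library, and the non-dividing cluster 1 had 42.9 and 80.6 CPM. The dividing clusters held 43.3% and 40.3% of the aged and young classical monocytes after stroke, against 55.9% and 59.9% at steady state and none in blood.

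**Figure D2:**
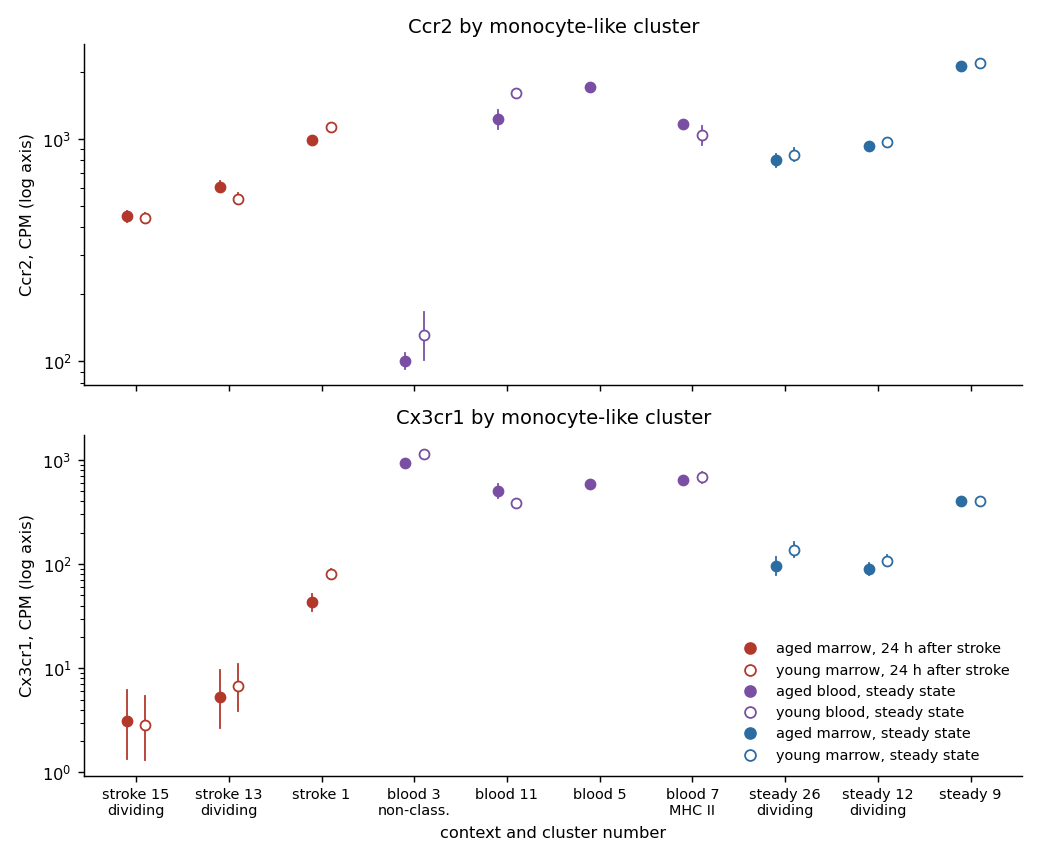
Ccr2 (top) and Cx3cr1 (bottom) in CPM (log axes) in each monocyte cluster, with 1 point per library of at least 10 cells and exact 95% counting intervals. Ccr2 is highest in steady-state cluster 9, at 2111 and 2182 CPM, and Cx3cr1 spans from 2.87 CPM in a dividing stroke cluster to 1137 CPM in non-classical monocytes.

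Single cells carried both receptors. UMIs of Ccr2 and Cx3cr1 were found together in 37 of 282 aged and 100 of 360 young classical monocytes after stroke, against 352 of 587 aged and 390 of 686 young ones at steady state. In blood they were found together in 680 of 695 aged and 116 of 137 young classical monocytes, and 1 aged and 10 young cells had neither. Ccr2 was found in nearly every classical monocyte of marrow (274 and 355 cells after stroke, 582 and 681 at steady state), so the count with both is close to that with Cx3cr1. In non-classical monocytes, where 564 of 578 aged and 51 of 52 young cells had Cx3cr1, 175 aged and 19 young cells had both.

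Stroke was compared with steady state in classical monocytes of both ages, where 3 of the 4 genes passed. Ccr1 was higher after stroke, with 172 and 130 CPM in the aged and young stroke libraries against 68.3 and 58.5 CPM at steady state. The difference was 1.67 ± 0.12 (log2, SE, edgeR's quasi-likelihood test, adjusted p = 1.13e-13, n = 2 libraries per condition). At this setting 47.8% of the 11650 genes tested passed, so a call by itself sets these genes little apart from the rest. With 1 library per age and context, the handling of each context cannot be told apart from the stroke.

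Cx3cr1 was lower after stroke, with 18.3 and 34.4 CPM against 178 and 186 CPM (-2.40 ± 0.15, log2, SE, adjusted p = 7.42e-16 by edgeR's test). By CPM the log2 ratio was -3.28 (-3.55 to -3.02) in aged and -2.44 (-2.63 to -2.25) in young mice. As a mean over cells, which gives shallow cells the same weight as deep ones, the level was 36.8 and 74.1 CPM after stroke against 238 and 243 CPM. Ccr2 was lower as well, with 691 and 737 CPM against 1224 and 1234 CPM (-0.36 ± 0.12, log2, SE, adjusted p = 0.00949 by edgeR's test). Ccrl2 did not pass (0.14 ± 0.46, log2, SE, adjusted p = 0.821 by edgeR's test). The scaling matters for these sizes: the median gene shifted by 0.42 on the log2 scale between TMM scaling and plain library size, and with library size alone the differences of Ccr1, Cx3cr1 and Ccr2 were 1.25, -2.82 and -0.79 and all passed.

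The 3 differences were also present outside the dividing clusters, in a fit added after the data were seen, where 29% of 9401 genes passed. Ccr1 was higher by 1.59 ± 0.16 (adjusted p = 1.15e-04), Ccr2 lower by 0.59 (-0.59 ± 0.13, adjusted p = 0.00688) and Cx3cr1 lower by 2.32 (-2.32 ± 0.19, adjusted p = 3.31e-05), all by edgeR's quasi-likelihood test on the log2 scale with SE. The compared clusters, stroke cluster 1 and steady-state cluster 9, had 245 and 182 CPM of Ccr1 against 91.3 and 99.0 CPM. They had 987 and 1133 CPM of Ccr2 against 2111 and 2182 CPM.

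Neutrophil transcripts were also higher after stroke in the class of classical monocytes. All 24 neutrophil markers that are no monocyte markers were detected in every marrow library of classical monocytes. Their summed level was 14859 and 8955 CPM in the aged and young stroke libraries, against 5377 and 5084 CPM at steady state. Camp stood at 7277 and 990 CPM in stroke cluster 1, against 273 and 414 CPM in steady-state cluster 9. In the dividing clusters 13 and 15 after stroke Camp stood at 611 and 113 CPM in the aged and 511 and 38.9 CPM in the young library, against 906 and 212 CPM (aged) and 615 and 456 CPM (young) in the dividing clusters 12 and 26 at steady state. Ccr1 stood at 153 and 111 CPM (aged) and 110 and 87.1 CPM (young) in clusters 13 and 15, against 65.6 and 44.8 CPM (aged) and 44.3 and 48.8 CPM (young) in clusters 12 and 26. Camp is only 1 of the 24 markers, and it was lower in the later immature neutrophils above, where Ccr1 was higher. Its level therefore does not stand for the neutrophil transcripts that go with Ccr1. The part of neutrophil transcripts in the Ccr1 difference was not tested, in the whole class or in the dividing clusters. Cells were also deeper after stroke, with a median of 22323 and 20466.5 UMIs per classical monocyte against 7339 and 6228.5 UMIs. Over all deposited cells of a library, of any class, the highest mitochondrial share was 9.95% and 9.90% after stroke against 4.99% and 4.91%.

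The pooled level of Cx3cr1 was also lower after stroke in other classes. Conventional dendritic cells had 5.57 and 45.8 CPM after stroke against 139 and 182 CPM, and neutrophil-primed progenitors 6.83 and 10.4 CPM against 42.8 and 45.8 CPM. The clusters of these classes differed, here with aged and young cells pooled. Steady-state dendritic cluster 13, which was dividing, had 198 CPM and cluster 22 had 73.8 CPM, against 20.4 CPM in stroke cluster 23. Steady-state progenitor clusters 0 and 1 had 69.4 and 61.8 CPM, and clusters 3 and 7 had 8.79 and 12.3 CPM. Stroke progenitor clusters 8 and 24 had 10.3 and 3.6 CPM. The part of the cluster mix in these differences was not tested. NK cells had no Cx3cr1 UMI after stroke in either library, which allows up to 5.63 CPM (aged) and 9.80 CPM (young) at 3 counts, against 30.6 and 22.9 CPM at steady state. The leading genes of steady-state NK cluster 24 also held Trbc2, Cd3d, Camp and Ngp, and it lost its name at resolution 0.5. Those of stroke NK cluster 9 held Gzma and Klr genes without Camp and Ngp, so this pair compares unlike clusters. Blood NK cluster 6 had 124 CPM with aged and young cells pooled. Erythroid cells, which should lack the gene, had 2.70 and 4.27 CPM against 10.1 and 9.59 CPM. The classes named plasmacytoid dendritic and T cells held unlike clusters after stroke and at steady state, so their pooled levels give no direction. Stroke cluster 6, with 204 of the 297 plasmacytoid cells, was led by histone genes and Ly6d and lost its name at resolution 0.5. With aged and young cells pooled it had 227 CPM of Ccr2, and stroke cluster 22, led by Ly6d and Siglech, had 333 CPM. The steady-state plasmacytoid clusters 8, 20 and 32 had 196, 23.7 and 206 CPM. Stroke T cell clusters 12 (led by Ccl5, Trbc2 and Cd3d) and 21 (led by Calca, Prg2 and Il7r) had 37.0 and 96.0 CPM of Ccr2, against 218 CPM in steady-state cluster 31, led by Rora, Tcf7 and Gata3.

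**Figure D3:**
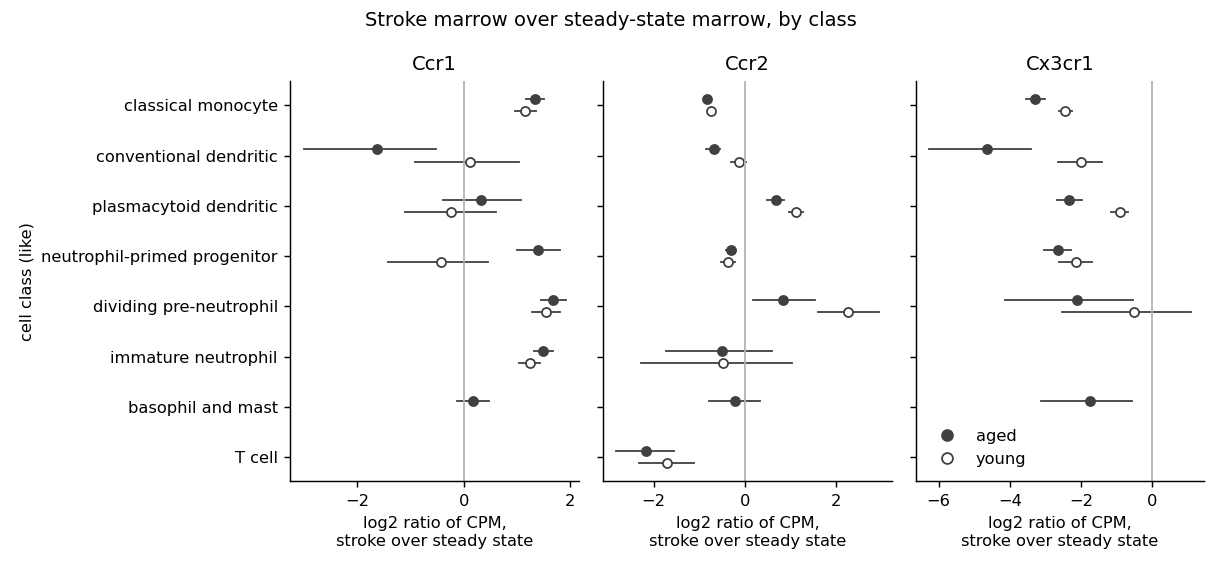
Log2 ratio of CPM, stroke marrow over steady-state marrow, for Ccr1, Ccr2 and Cx3cr1 by class and age, drawn where both libraries of a pair together hold at least 20 UMIs, with exact 95% counting intervals. Every Cx3cr1 point lies below 0, and Ccr2 lies below 0 in classical monocytes (-0.83 and -0.74). The plasmacytoid dendritic and T cell points compare unlike clusters. The conventional dendritic and progenitor points pool steady-state clusters of unlike Cx3cr1 levels.

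Blood was compared with steady-state marrow in classical monocytes. Cx3cr1 was higher in blood, with 599 and 453 CPM in aged and young blood against 178 and 186 CPM in marrow (1.79 ± 0.13, log2, SE, edgeR's test, adjusted p = 1.47e-08, n = 2 libraries per place). In that fit 47.3% of 11369 genes passed. Ccr1 was lower in blood, with 29.9 and 34.3 CPM against 68.3 and 58.5 CPM (-0.76 ± 0.16, log2, SE, adjusted p = 9.54e-04 by edgeR's test), and this call was lost with DESeq2's test (adjusted p = 0.115) and with doublets kept (adjusted p = 0.0987). Leaving out 1 library gave values between -0.93 (without young blood or young marrow) and -0.48 (without aged marrow).

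Ccr2 gave opposite directions with and without dividing cells. Over the whole class it passed as higher in blood, with 1509 and 1479 CPM against 1224 and 1234 CPM (0.54 ± 0.12, log2, SE, adjusted p = 0.00124 by edgeR's test), and with library size alone it did not pass (0.28, adjusted p = 0.0571). Blood held no dividing monocyte cluster. Without those of marrow the Ccr2 difference was -0.27 ± 0.12 (log2, SE, adjusted p = 0.132 by edgeR's test, 20.9% of 8772 genes called), and steady-state cluster 9 stood above each blood cluster, which had 1037 to 1707 CPM. In the same fit Cx3cr1 remained higher in blood by 0.62 ± 0.13 (adjusted p = 0.00248) and Ccr1 lower (-1.32 ± 0.17, adjusted p = 2.46e-05). Ccrl2 did not pass over the whole class (1.14 ± 0.53, adjusted p = 0.0885). The blood clusters split by library: cluster 5 held 460 aged and 5 young cells, and cluster 11 held 25 aged and 107 young cells.

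Age left no member past the threshold in classical monocytes, where 0.0576% of 12159 genes passed. The log2 differences of aged over young cells were 0.19 ± 0.13 for Ccr1, -0.03 ± 0.09 for Ccr2, 0.48 ± 0.38 for Ccrl2 and -0.13 ± 0.19 for Cx3cr1 (SE, adjusted p = 0.9997 for each by edgeR's test, n = 3 libraries per age). In neutrophil-primed progenitors, a fit added after the data were seen, 0.284% of 13738 genes passed and none of the members. Ccr1 differed there by 0.76 ± 0.28 (log2, SE, adjusted p = 0.747 by edgeR's test). Its levels were near those of erythroid cells at steady state and above them after stroke. Leaving out a steady-state library gave a difference of 2.01, and leaving out a stroke library gave 0.17. These p-values set the average age difference against how far it varies between contexts, not against other animals, and do not show that the ages were alike.

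Ccrl2 was scarce everywhere. It was found in the neutrophils of blood and, outside them, in NK cells, other classes of blood and some marrow clusters after stroke. Mature neutrophils had 17.6 CPM (aged, 235 UMIs, 15.4 to 20.01) and 19.9 CPM (young, 116 UMIs, 16.4 to 23.8) in blood. In the stroke marrow they had 0 UMIs in 99 aged cells, which allows up to 4.87 CPM at 3 counts, and 2 UMIs (2.45 CPM, 0.30 to 8.84) in 148 young cells. Both blood intervals lie above the aged limit and the young interval. With doublets kept the blood levels were 27.7 CPM (aged) and 24.9 CPM (young), over 1065 aged and 920 young cells in place of 3231 and 1439, since several neutrophil clusters then had no name. Blood and stroke marrow differ in place, in treatment and in the stage of the cells named mature, as the marker sums above show, and these cannot be told apart here. Immature neutrophils had 0 to 2 UMIs per library.

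Within blood, Ccrl2 was uneven between clusters of mature neutrophils. Cluster 2, led by Mmp9 and the cytokine gene Il1b, had 25.3 CPM (aged, 102 UMIs) and 44.8 CPM (young, 7 UMIs). Cluster 4 had 23.9 and 28.5 CPM, and cluster 0 had 13.7 CPM (aged, 85 UMIs) and 11.03 CPM (young, 3 UMIs). Cluster 1 had 2.27 CPM in 187 aged and 17.2 CPM in 1041 young cells. After thinning to 1000 UMIs, 1.61% (1.20 to 2.11) of aged and 2.16% (1.47 to 3.06) of young mature neutrophils of blood had a Ccrl2 UMI, against 0% to 1.27% of erythroid and 0% of B lineage cells (4.43% and 4.93% unthinned). The 10 highest cells held 22.98% of the aged and 32.8% of the young UMIs. Cells with both Ccr1 and Ccrl2 numbered 127 of 3231 in aged and 67 of 1439 in young blood, where 143 and 71 cells had Ccrl2.

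Outside neutrophils Ccrl2 was found in NK cells, with 30.01 CPM (17.2 to 48.7) and 32.7 CPM (15.7 to 60.1) after stroke, 13.3 and 12.8 CPM in blood, and 3.49 and 10.2 CPM at steady state. These NK levels rest on 4 to 21 UMIs per library, and the steady-state NK class also held genes of other cells. In blood, with aged and young cells pooled, conventional dendritic cluster 12 had 12.4 CPM and non-classical monocyte cluster 3 had 10.1 CPM. Mature neutrophil clusters 0, 1 and 8 had 13.6, 14.6 and 14.6 CPM when pooled in the same way. Stem and progenitor cells had 14.6 CPM in aged stroke marrow from 12 UMIs, and 5.34 and 6.62 CPM at steady state. Erythroid cells of aged stroke marrow had 10.5 CPM (7.11 to 14.9), which is within the interval of the stem cells of that library. Erythroid cluster 14 of stroke marrow had 18.9 CPM with aged and young cells pooled, near the level of mature neutrophils of blood. The genes most like Ccrl2 over the class sums were Impact, Peak1, Crtc3, Ccl4 and Gm36738, all with r between 0.66 and 0.67, and at so few counts nothing is read from them.

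**Figure D4:**
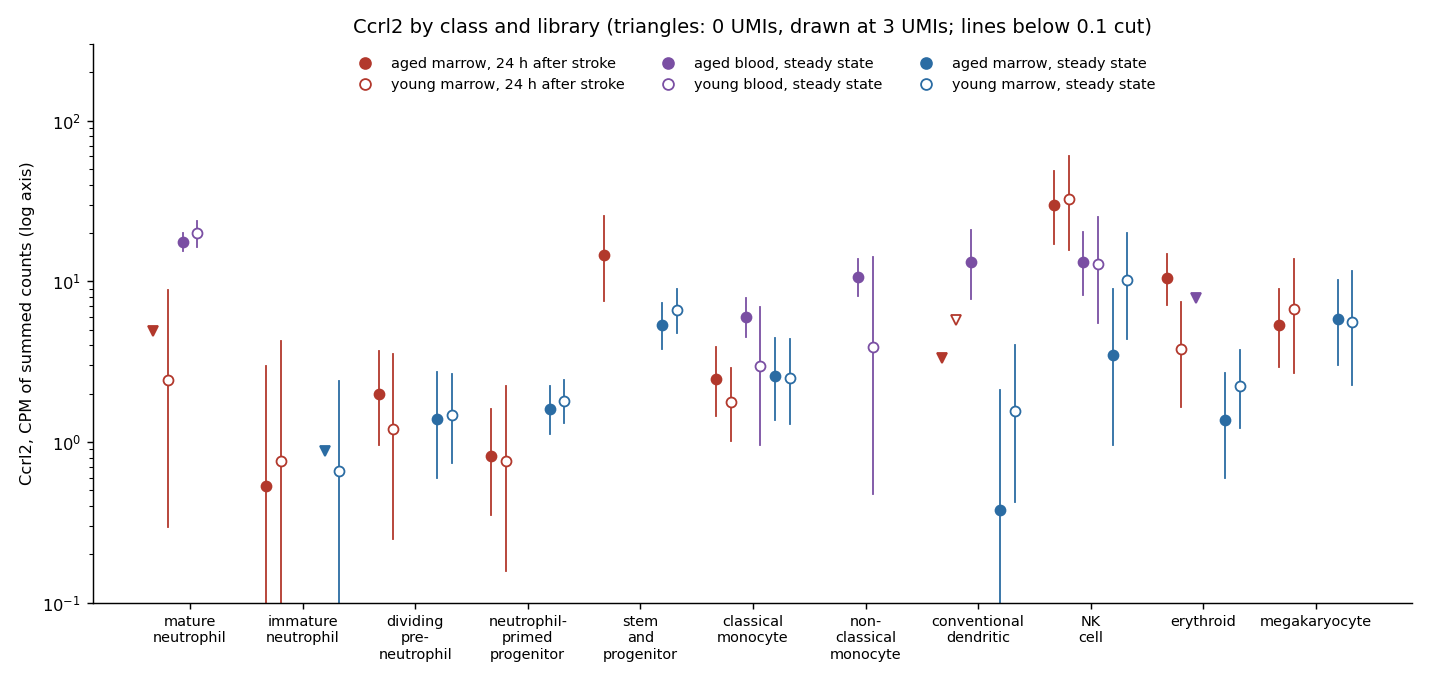
Ccrl2 in CPM of summed counts (log axis) by class and library, with exact 95% counting intervals, and triangles at the level of 3 UMIs where none was counted. Mature neutrophils of blood stand at 17.6 and 19.9 CPM, above the 2.45 CPM of the young stroke marrow and the limit of 4.87 CPM of the aged. NK cells after stroke stand above these points, with intervals that overlap those of the blood neutrophils.

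Other genes of the pathway were read from lists of 20 receptors, 12 ligands and 25 signalling genes. In classical monocytes after stroke, edgeR's test called 47.8% of all 11650 genes and DESeq2's test called 2146 of 19761. Of 6 tested receptors 3 rose and 1 fell, with a list median of 1.51 against -0.02 for all genes (log2). DESeq2's test called 3 receptors. Among those that rose, Cmklr1, the chemerin receptor, differed by 3.30 ± 0.47 (adjusted p = 3.46e-07), and Cxcr2 by 2.80 ± 0.16 (79.3 and 36.8 CPM against 14.5 and 7.55 CPM, adjusted p = 5.88e-17), each by edgeR's quasi-likelihood test. Cxcr2 is also 1 of the neutrophil markers that moved with this class. Ccr9, a marker of plasmacytoid dendritic cells, fell (-2.58 ± 0.69, adjusted p = 0.00224 by edgeR's test).

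Of 7 tested ligands in classical monocytes after stroke, Ccl4 (2.00 ± 0.38) and Ccl5 (1.52 ± 0.39) rose and Ccl9 fell (-0.31 ± 0.12), with a list median of 0.70 (log2, SE, edgeR's test), and DESeq2's test called 0 ligands. By edgeR's unadjusted p, 5 of the 7 ligands were under 0.05, beside 6221 of all 11650 genes. Of 24 signalling genes 3 rose and 9 fell, with a median of -0.13, beside 47.8% of all genes called, and DESeq2's test called 6. Among those that fell were the receptor kinase gene Grk3 (-1.61 ± 0.14, adjusted p = 1.21e-11 by edgeR's test) and the regulator gene Dock2 (-0.96 ± 0.12). The arrestin genes split, with Arrb2 higher (0.70 ± 0.13) and Arrb1 lower (-1.08 ± 0.17).

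In immature neutrophils after stroke 1 of 2 tested receptors rose, Cxcr2 (1.25 ± 0.12, log2, SE, adjusted p = 7.32e-24 by edgeR's test), the gene that marks later stages. Cxcr4, which holds neutrophils in the marrow, did not pass (0.02 ± 0.15), with 71.4 and 98.2 CPM against 90.9 and 109 CPM. Of 2 tested ligands Ccl6 fell (-0.62 ± 0.13), and of 24 signalling genes 7 rose and 3 fell, with a list median of 0.14 against -0.03 for all genes, beside 26.3% of all genes called. DESeq2's test called 0 of these ligands, where edgeR's unadjusted p was under 0.05 for 1, and 2 of the signalling genes. Over all genes DESeq2's test called 429 of 16716, and edgeR's unadjusted p was under 0.05 for 2747 of 7607. In classical monocytes of blood against marrow Cmklr1 rose (4.30 ± 0.45) and Cxcr4 fell (-0.80 ± 0.14) among 4 tested receptors, 3 of 7 ligands rose (Ccl5, Ccl6 and Ccl9), and 10 of 24 signalling genes rose and 4 fell, beside 47.3% of all genes called. DESeq2's test called 2 receptors, 2 ligands and 8 signalling genes there, beside 2340 of all 19491 genes. For age 0 listed genes passed in monocytes and neutrophils by edgeR's test and 0 by DESeq2's. By edgeR's unadjusted p, 3 of 6 receptors, 3 of 7 ligands and 1 of 24 signalling genes were under 0.05 in monocytes. Of all 12159 genes there 625 were. In neutrophils 1 of 5 receptors, 1 of 5 ligands and 3 of 24 signalling genes were, and 685 of all 9399 genes. Ccl5 alone passed in neutrophil-primed progenitors by edgeR's test (1.61 ± 0.27, adjusted p = 0.00317), and 0 listed genes passed there by DESeq2's. Ccr3 was near 0 in monocytes, at 0 to 1.05 CPM, and had 4.12 and 7.36 CPM in aged and young mature neutrophils of blood.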

How the data were processed

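Droplet libraries (10x 3′ version 3.1 chemistry, per the labels) were read against GRCm38/mm10. Per the submitters' processing notes the tools were Cell Ranger 3.0.2, STAR 2.5.3a, featureCounts 1.6.4 of Subread and UMI-tools, with no role given for each. The authors deposited 1 table of whole-number UMI counts for 28055 cells, not normalized, and it was used as deposited. Barcodes under 500 UMIs or 200 genes, or with over 10% mitochondrial UMIs, were dropped, and simulated-neighbour doublets with a score over 0.25 were removed. Each context was clustered (2000 variable genes, 30 components, 15 neighbours, Leiden resolution 1, leidenalg 0.10.2) without the 4 receptor genes.

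Clusters were named from marker lists, and the thresholds of naming (a score of 1.5 and at least 3 markers) were set after cluster tables had been seen. The members, markers and pathway lists were chosen with earlier results of these data known. Counts were summed per class and library where at least 30 cells were present. The test on these sums was edgeR's quasi-likelihood test, version 4.0.16 (scaled by TMM, age plus context, Benjamini-Hochberg adjustment over all genes tested, threshold 0.05) in R 4.3.3, and with DESeq2 1.42.0 as an alternative. The fitted spread is that of 1 factor's difference across the levels of the other, not between animals. Genes named are the 4 members, their 5 nearest genes by correlation, and called genes of the pathway lists, of which 1 is not reported here. The test was checked on simulated counts. At resolution 1 a fit of age in stem and progenitor cells was not run, since 1 library held 6 such cells. At resolution 0.5 it was run, with 166 to 916 cells per library, and 123 of 12837 genes passed. No member passed there, and Ccr2 differed most (-1.36 ± 0.33, log2, SE, adjusted p = 0.121 by edgeR's test). Values are UMI counts as deposited, and intervals cover counting error only.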

Additional observations from a re-analysis of the deposited data

Results flagged for a closer look

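Cx3cr1 in classical monocytes pointed in opposite directions with age in different contexts. The aged over young log2 ratio was -0.91 (-1.21 to -0.61) in stroke marrow, from 18.3 CPM (aged) and 34.4 CPM (young), and 0.40 (0.29 to 0.51) in blood, from 599 CPM (aged) and 453 CPM (young). In steady-state marrow it was -0.06 (-0.20 to 0.07). The difference between the contexts was not tested, since each ratio rests on 1 library per age. The young blood class came mostly from cluster 11, where Cx3cr1 stood at 502 CPM (aged, 25 cells) and 383 CPM (young, 107 cells), and the aged class from cluster 5, at 583 CPM.

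Cx3cr1 in mature neutrophils showed the same 2 directions, with -2.91 in stroke marrow (1 aged and 10 young UMIs) and 1.28 in blood (94 aged and 17 young UMIs). These are levels of 1.62 and 12.2 CPM in aged and young stroke marrow and of 7.04 and 2.91 CPM in aged and young blood, within the range of erythroid cells or near it (2.70 to 10.1 CPM). This difference was not tested either.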

How the results depend on the processing

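No paired analysis was possible because each group holds 1 library, so there are no replicate numbers to pair, and the fits instead keep the other factor (context or age) as a term. DESeq2 called fewer genes than edgeR's 7 (age, monocytes), 13 (age, neutrophils), 39 (age, progenitors), 5382 (blood), 5571 (stroke, monocytes) and 1998 (stroke, immature neutrophils): 3, 3, 5, 2340, 2146 and 429. For age the counts moved with the setting. In monocytes they were 12 with doublets kept, 188 with no filter on low counts and 3 without dividing clusters. In neutrophils they were 4 with doublets kept, 80 with no filter, 24 at resolution 0.5, 26 with library size alone and 4 without blood cluster 4. In progenitors they were 117, 89 and 100 with doublets kept, no filter and resolution 0.5. Leaving out 1 library gave 11 to 215 in monocytes and 25 to 216 in neutrophils. Without dividing clusters blood gave 1829 and stroke 2725 calls in monocytes. The immature fit gave 3638 at resolution 0.5 and 1081 in clusters 23 and 4.

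For the members, alternatives that lost or gained a call were these. Ccr1 in blood was -0.77 with DESeq2 and -0.32 with doublets kept, both lost. Ccr2 in blood was 0.28 with library size alone, lost. Ccr2 in immature neutrophils was -1.26 with doublets kept, and Ccrl2 in blood 1.30, both gained (adjusted p = 0.014 and 0.046). Cx3cr1 in immature neutrophils, not in the fit otherwise, passed with doublets kept (-3.22, adjusted p = 0.0148). Keeping doublets also changed which clusters had a name. Signs turned, with no call, for Ccr2 in blood without dividing clusters (-0.27), Ccr2 in immature neutrophils at resolution 0.5 (0.43) and with clusters 19 and 3 (0.0057), and Ccrl2 after stroke with doublets kept (-0.32) and with library size alone (-0.28). For age they turned for Ccr2 in neutrophils with doublets kept (-0.075) and for Cx3cr1 there with DESeq2 (-0.050). Over all libraries left out in turn, Ccr1 ran between 0.060 and 0.32, Ccrl2 between 0.27 and 0.68, Ccr2 between -0.061 and 0.012 and Cx3cr1 between -0.42 and 0.18 in monocytes. In neutrophils Ccr1 ran between -0.25 and -0.073 and Ccrl2 between -2.30 (without young blood) and -0.23, Ccr2 between -0.025 (without aged blood) and 0.65, and Cx3cr1 between -0.59 (without aged blood) and 1.15.

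Leaving out 1 library moved Ccr1 in blood between -0.93 and -0.48, Ccrl2 there between 0.49 and 1.47, Cx3cr1 there between 1.55 and 2.01, Cx3cr1 after stroke between -2.86 and -2.01, and Ccr1 in immature neutrophils between 1.49 and 1.80. In progenitors Ccr1 ran between 0.17 and 2.01, and Cx3cr1 between -0.59 and -0.10. The causes were not tested. Of 52 levels, doublets kept changed each by a factor of 0.701 to 1.69 and means over cells by 0.872 to 2.16, and for 50 levels resolution 0.5 did so by 0.781 to 1.51. Shares of cells moved with the depth they were thinned to. Of levels, those from under 20 UMIs, such as Ccrl2 in most classes, are limited by depth.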
